A study of Homo sapiens with 30 samples.

Results

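Clones KO2 and KO1 of Delta47, a human multiple myeloma cell line, were compared with each other. In both, the gene of the transcription factor FOXM1 had been knocked out by CRISPR-Cas9, and neither carried a vector. Each clone has 3 libraries, so the comparison holds 6 of the 30 libraries of the series. Genes with a value of 1 or more in at least 3 of these 6 libraries were taken, which left 10771 of 17286 genes. Levels in 2 further Delta47 groups of 3 libraries each are given beside the clones: KO2R, which are KO2 cells that received a vector for the FOXM1c isoform and were sorted by GFP, and WT, which are unedited Delta47 cells. The second line of the series, OPM2, also has knockout clones named KO2 and KO1, again with 3 libraries each. Each knockout group is a single clone picked by limiting dilution, checked by the submitters on Western blots and by Sanger sequencing. A difference between KO2 and KO1 therefore describes 2 clones, and the p-values measure only the spread between libraries. Nothing in the labels says whether the 3 replicates were separate cultures, so that spread may be technical.

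FOXM1 is a forkhead transcription factor whose activity peaks as cells prepare for and pass through mitosis, where it switches on genes of the G2 and M phases. Plasma cells, the antibody-secreting end stage of the B cell lineage, normally stop dividing, and multiple myeloma is the cancer in which they divide again. The transcription factors IRF4, PRDM1 and XBP1 hold the plasma cell state, and surface proteins such as SDC1 (CD138), SLAMF7 and GPRC5D mark these cells.

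The guide RNAs are shown because they are the only designed difference between the clones and WT. The submitters designed 3 of them against exon 2 of FOXM1 and combined each with Cas9 protein separately before electroporation. The labels do not say which guide made which clone. Capitals mark the 19 bases that the first and the second guide share.
Guide 1: uUGAGAAUCAGUGGCCGACG
Guide 2: UGAGAAUCAGUGGCCGACGg
Guide 3: uaaugaaaacuagcccccgu
Each guide matched the FOXM1 transcripts once, in exon 2, on chromosome 12 of build GRCh38, where the gene lies on the minus strand. Guide 1 matched chr12:2874444-2874463, guide 2 chr12:2874445-2874464 and guide 3 chr12:2874461-2874480, so the 3 target sites overlap. They lie in 4 of the 5 protein-coding FOXM1 transcripts searched. The 3 bases that follow the match are GGG for guides 1 and 2 and CGG for guide 3.

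FOXM1 transcript itself stood at about the same level in the clones. The authors' expression value was 47.11, 46.10 and 45.35 in KO2, against 46.09, 49.78 and 47.97 in KO1. The libraries of the clones overlapped, and both clones lay below KO2R (99.37 ± 4.37, SD, n = 3) and WT (88.92 ± 1.88). The log2 fold change of KO2 over KO1 was −0.05 ± 0.04 (SE, adjusted p = 0.308), and it was −0.13 (adjusted p = 0.0143) once a trend with transcript length, described further on, had been removed. Reads from an edited transcript are counted here as well, so the value says nothing of the protein.

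Markers placed the cells of both clones with plasma cells. Of 11 plasma cell markers, 10 had a value of 1 or more and FCRL5 did not. The markers summed to 2047 to 2067 in KO2 and to 2332 to 2372 in KO1. Of 9 defining markers of T and NK cells and 8 of myeloid cells, 7 of each kind are in the table and 0 reached 1. Of the B cell genes named here BACH2 reached 1, and PAX5 and MS4A1 did not. EPCAM, KRT8 and KRT18 were present among epithelial markers, and PECAM1 was the single stromal or endothelial marker present. The totals of the value columns were 536159 to 542125 in KO2 and 571762 to 578260 in KO1. Such totals do not give the number of reads, and depth is therefore unknown. Correlations between libraries (Pearson's r of log2 values, across genes) were 0.9979 to 0.9982 within a clone and 0.9894 to 0.991 between clones.

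Many genes differed a little between the clones and few differed by much. limma called 4595 of 10771 genes at an adjusted p below 0.05 (42.7%), of which 2725 were higher in KO2 (25.3%) and 1870 lower (17.4%). The libraries of the clones did not overlap at 5936 genes (55.1%). Only 29 genes were called and at least 2-fold higher in KO2 (0.269%), and 33 were called and at least 2-fold lower (0.306%). The share of calls that were higher in KO2, 59.3%, depended on scaling: it was 80.9% with every column scaled to the same total (4443 higher and 1047 lower), 53.2% with quantile scaling and 48.7% with the length trend removed (1850 or 17.2% higher and 1945 or 18.1% lower). The median log2 fold change of all genes was 0.0304 as deposited and 0.116 after scaling to equal totals.

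IL36B, which encodes a cytokine of the interleukin-1 family, set KO2 apart from KO1 most sharply. Its value was 35.12, 34.48 and 29.71 in KO2, and it was listed at 0 in all 3 KO1 libraries. KO2R had 28.89 ± 2.89 and WT was listed at 0, so the transcript was seen in KO2 and its vector derivative and in neither other group. No fold is given against a group listed at 0.

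IAH1, which encodes a lipid esterase, was higher in KO2 with 15.76, 14.70 and 16.57, against 2.03, 1.43 and 1.64 in KO1. No library overlapped, the ratio of means was 9.22 and the log2 fold change was 2.63 ± 0.10 (adjusted p = 3.44e-12). KO2R (21.53) and WT (12.66) both lay on the side of KO2, so KO1 was the group that stood apart. ROBO1, a guidance receptor for Slit ligands, had 12.45, 11.35 and 11.43 in KO2 and 2.08, 2.10 and 2.24 in KO1 (2.02 ± 0.07). It averaged 6.41 in KO2R and only 0.0233 in WT, so KO2, KO2R and KO1 all lay above WT. PECAM1, the adhesion molecule CD31, had 13.89, 13.93 and 15.58 in KO2 and 3.33, 3.05 and 3.19 in KO1 (1.88 ± 0.06), and again every KO2 library was above every KO1 library. KO2R averaged 13.72 and WT 1.19. EPHA3, an ephrin receptor tyrosine kinase, had 12.30, 12.12 and 12.55 in KO2 and 3.25, 3.03 and 3.36 in KO1 (1.66 ± 0.06), while WT, at 41.40, was above both clones. In bulk RNA, more cells with a transcript and more transcript per cell cannot be told apart, and this holds for every level given here.

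The other large rises were of several kinds. ASS1, the argininosuccinate synthase of arginine synthesis, had 96.77, 101.47 and 95.30 in KO2 and 43.18, 44.29 and 43.51 in KO1, a log2 fold change of 1.15 ± 0.04. KO2R was higher still at 132.7 and WT the lowest at 27.41. CRABP2, which binds retinoic acid inside the cell, was higher in KO2 by 1.21 ± 0.06 (27.49, 26.16 and 25.60 in KO2, against 11.09, 9.99 and 11.41 in KO1). SLC16A3, the lactate exporter MCT4, was higher by 1.54 ± 0.07 (7.19, 7.77 and 8.54 in KO2, against 2.09, 2.06 and 1.92 in KO1). COL6A1, a collagen VI chain, was higher by 1.16 ± 0.06 and KCNH2, a potassium channel, by 1.19 ± 0.07. PRSS23 (1.65), ITM2A (1.48), CXXC5 (1.21) and COTL1 (1.13) also were among the 15 largest rises. Each of the rises named here was called, with every KO2 library above every KO1 library.

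**Figure D1:**
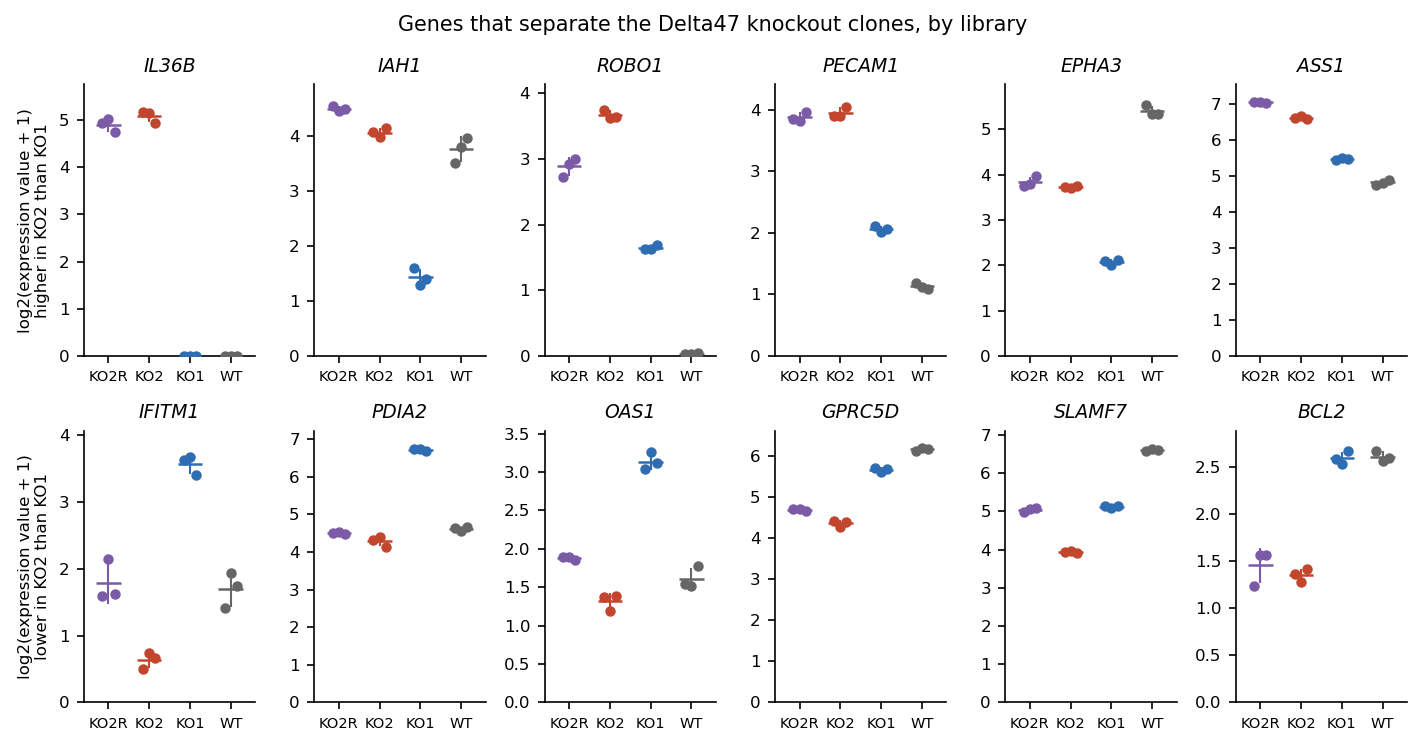
Expression of 6 genes higher in KO2 (top) and 6 lower in KO2 (bottom) as log2(value + 1) in each library of KO2R, KO2, KO1 and WT. Points are libraries, horizontal bars the mean and vertical bars the SD (n = 3); in each panel the KO2 and KO1 points are separate, and WT lies by KO2 for some genes (IAH1, PDIA2) and by KO1 for others (BCL2).

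IFITM1, an interferon-induced membrane protein that restricts virus entry, showed the largest fall. Its value was 0.42, 0.67 and 0.59 in KO2, against 11.31, 11.70 and 9.54 in KO1, a log2 fold change of −2.92 ± 0.14 (adjusted p = 1.36e-10). KO2R (2.50) and WT (2.27) lay between the clones. Its neighbour IFITM2 also fell (3.55, 3.59 and 3.34 in KO2, against 10.56, 14.16 and 11.46 in KO1, −1.53 ± 0.10). The IFITM genes are close copies of each other, so reads may have been split between them.

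PDIA2, a protein disulfide isomerase, had the highest level in KO1 among the 15 genes with the largest falls. It had 18.90, 19.94 and 16.58 in KO2, against 105.67, 105.08 and 102.75 in KO1 (−2.44 ± 0.05, adjusted p = 4.32e-15). KO2R at 21.79 and WT at 23.66 were close to KO2, so the high level belonged to KO1. OAS1, an interferon-induced sensor of double-stranded RNA, had 1.58, 1.28 and 1.62 in KO2 and 7.20, 8.60 and 7.66 in KO1 (−1.82 ± 0.08), with KO2R at 2.69 and WT at 2.07. TCF4, a basic helix-loop-helix transcription factor of B lineage and dendritic cells, had 22.69, 22.45 and 22.22 in KO2 and 48.51, 46.31 and 50.56 in KO1 (−1.08 ± 0.05). WT (22.11) and KO2R (19.11) again lay by KO2. TP53I11, a p53-inducible gene, was lower in KO2 by −1.50 ± 0.05, with 20.93 in KO2, 61.23 in KO1, 15.98 in KO2R and 52.27 in WT.

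A second set of falls concerned genes that were high in WT. GPRC5D, an orphan receptor of plasma cells that is targeted by myeloma therapies, had 20.39, 18.26 and 19.99 in KO2, against 51.33, 47.69 and 50.77 in KO1 (−1.31 ± 0.05, adjusted p = 2.22e-12). SLAMF7, the target of elotuzumab, had 14.26, 14.66 and 13.96 in KO2 and 34.11, 32.88 and 34.15 in KO1 (−1.18 ± 0.04). LILRB4, an inhibitory immunoglobulin-like receptor, was lower by −1.22 ± 0.05. WT stood above both clones for all of these genes, at 70.66 for GPRC5D, 96.61 for SLAMF7 and 97.93 for LILRB4. KO2R was above KO2 for SLAMF7 (32.01, log2 fold change of KO2R over KO2 1.11) and for GPRC5D (24.89, 0.33), and the difference for LILRB4 (31.71) was not called. BCL2, the founding inhibitor of apoptosis, had 1.57, 1.43 and 1.67 in KO2 and 5.01, 4.79 and 5.37 in KO1 (−1.24 ± 0.08). KO1 stood at the WT level of 5.12 and KO2R, at 1.76, at that of KO2.

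ADAMTS17 (−1.27), METTL13 (−1.23) and ISG15 (−1.15) also were among the 15 largest falls. So were EIF3CL and SSX4B, which have near-identical copies elsewhere in the genome and are uncertain for that reason. EIF3CL varied widely within groups (0 to 5.97 in KO2 and 7.01 to 12.29 in KO1), and its call was lost without KO2 replicate 1 or 3 or without KO1 replicate 1 or 2 (adjusted p = 0.0538 to 0.14).

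Against WT, the genes at least 2-fold apart fell into several classes. Of the 29 higher in KO2, 11 were called against WT in both clones in the same direction, 7 in both in opposite directions, 6 in KO2 alone and 5 in KO1 alone. Of the 33 lower in KO2, the same classes held 9, 10, 8 and 6 genes. Over all genes tested these classes held 27.1%, 2.36%, 14.1% and 23.3%, and 43.6% of genes were called in KO2 and 52.8% in KO1 against WT. These counts use the same KO2 and KO1 libraries as the comparison between the clones. In KO2R against KO2, 16 of the 33 genes lower in KO2 were called higher, 6 lower and 11 not called, and of the 29 higher in KO2, 6 were called higher, 13 lower and 10 not called. Of all genes tested, 25.5% were called higher and 37.4% lower in KO2R than in KO2. That comparison again shares the KO2 libraries, and it has a strong trend with transcript length, given further on.

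Plasma cell genes were lower in KO2 more often than higher. Of 26 tested members of the plasma cell identity list, 15 were lower, 3 higher and 8 not called, with a median log2 fold change of −0.19 beside 0.0304 for all genes. The share lower was 57.7%, beside 17.4% of all genes. After scaling to equal totals 12 were lower and 5 higher. JCHAIN, the joining chain of polymeric antibodies, had 1487, 1482 and 1510 in KO2 and 2505, 2400 and 2497 in KO1 (−0.72 ± 0.03, adjusted p = 5.28e-11), with no overlap. SEC11C, a signal peptidase subunit, was lower by −0.63 ± 0.04 and SDC1, the plasma cell marker CD138, by −0.34 ± 0.03 (291.7 in KO2, 368.5 in KO1, 307.5 in KO2R and 171.2 in WT). CD38 was lower by −0.19, a call lost after scaling to equal totals (adjusted p = 0.118). Of the master regulators, PRDM1 (BLIMP1), which extinguishes the B cell programme, was higher in KO2 with 64.90, 64.41 and 62.34, against 50.01, 49.17 and 49.38 in KO1 (0.36 ± 0.04), XBP1 was higher by 0.10, and IRF4 was not called (192.4 in KO2 and 193.7 in KO1, adjusted p = 0.846). With the length trend removed IRF4 was called lower (−0.15, adjusted p = 0.000358).

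Among surface proteins targeted or studied in myeloma, 9 of 21 tested were lower in KO2 and 5 higher (6 and 5 after scaling to equal totals). Without that scaling the shares were 42.9% lower and 23.8% higher, beside 17.4% and 25.3% of all genes. With it, 9.7% of all genes were lower and 41.2% higher. CD48 had 161.0, 162.6 and 165.1 in KO2 and 267.0, 252.5 and 263.8 in KO1 (−0.68 ± 0.03), and CD70, the ligand of CD27, had 465.5, 460.0 and 454.1 in KO2 and 755.1, 745.8 and 738.2 in KO1 (−0.70 ± 0.05). For CD70, WT (505.7) lay nearer to KO2, and for CD48 it lay above both clones (388.8). BACH2, a repressor that keeps B cells from becoming plasma cells, was higher in KO2 (10.14, 10.40 and 10.41) than in KO1 (5.45, 5.47 and 6.32), and BTK, the B cell kinase, was lower (13.63 ± 0.55 in KO2 and 22.56 ± 0.84 in KO1). PAX5 and MS4A1, further B cell genes, stayed below 1 in both clones.

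Interferon-stimulated genes were mostly lower in KO2, but not as a whole. Of 28 tested, 15 were lower, 5 higher and 8 not called, with a median of −0.17. The share lower was 53.6%, beside 17.4% of all genes, and the share higher 17.9%, beside 25.3%. ISG15, a ubiquitin-like protein, had 19.37, 20.65 and 18.83 in KO2 and 43.10, 42.96 and 48.17 in KO1 (−1.15 ± 0.06), with KO2R at 30.37 and WT at 27.97. Among the transcription factors of the pathway, IRF7 was lower by −0.86 ± 0.10 and IRF9 by −0.44 ± 0.09. IFIT1, which binds foreign RNA, went the other way, with 2.05, 2.15 and 2.55 in KO2 against 1.74, 1.44 and 1.58 in KO1 (0.33 ± 0.09), and so did IFIT5 (0.33 ± 0.07).

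The promoters of these genes are shown because the interferon-stimulated response element is the promoter site through which type I interferon acts on them. The letters searched were GAAA, any 2 bases (NN) and GAAA again, on both strands and with overlaps counted, over 250 bases before the gene start in RefSeq promoters of build GRCh38.p14. They occur in 839 of 27305 promoters (3.07%), and in 13 of the 23 tested interferon genes with a promoter in the table. Among these, 6 of the 11 lower in KO2, 3 of the 4 higher and 4 of the 8 not called had a match, so the letters did not sort the genes by direction. Capitals mark the matches in IFITM1 (chr11:313940-314039, plus strand), ISG15 (chr1:1013339-1013438, plus strand), IFI6 (chr1:27672276-27672393, minus strand) and IFIT1 (chr10:89392462-89392561, plus strand). Adjoining or overlapping matches run together.
IFITM1: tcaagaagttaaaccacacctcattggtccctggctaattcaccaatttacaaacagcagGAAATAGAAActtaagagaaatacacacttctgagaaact
ISG15: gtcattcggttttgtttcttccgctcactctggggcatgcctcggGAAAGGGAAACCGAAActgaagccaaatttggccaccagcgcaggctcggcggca
IFI6: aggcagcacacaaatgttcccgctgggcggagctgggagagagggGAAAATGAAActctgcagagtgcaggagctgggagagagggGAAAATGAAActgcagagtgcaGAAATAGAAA
IFIT1: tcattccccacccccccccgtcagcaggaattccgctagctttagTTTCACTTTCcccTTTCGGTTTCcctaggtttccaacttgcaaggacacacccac
The first 3 genes were lower in KO2 and IFIT1 was higher. OAS1, the gene with the second largest fall of the list, has no match with these letters in this window. A match is a description of the sequence and not a measured binding site.

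Antigen presentation genes of MHC class I were called lower in KO2 more often than higher. Of 18 tested, 9 were lower, 3 higher and 6 not called (median −0.20). The share lower was 50%, beside 17.4% of all genes, and the share higher 16.7%, beside 25.3%. After scaling to equal totals 9 were lower and 8 higher, where 9.7% of all genes were lower and 41.2% higher. PSMB8, a subunit of the immunoproteasome, had 41.21, 38.64 and 40.74 in KO2, against 64.71, 62.90 and 60.83 in KO1 (−0.63 ± 0.04). TAP1, the peptide transporter, fell by 0.49 on the log2 scale and B2M, the light chain of the class I complex, by 0.38. HLA-C and HLA-B, classical heavy chains, were higher by 0.26 and 0.30, but the HLA genes are highly similar and their reads may be shared. Of NF-kB subunits and targets, 9 of 22 were lower, 2 higher and 11 not called (5 lower and 3 higher after scaling to equal totals). Their shares without that scaling were 40.9% lower and 9.09% higher, beside 17.4% and 25.3% of all genes. TNFAIP2 (−1.05 ± 0.08) and RELB, a subunit of the non-canonical pathway (−0.81 ± 0.07), had the smallest p-values. RELB stood at 3.05 in KO2, 6.09 in KO1, 3.34 in KO2R and 9.97 in WT.

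Single regulators of cell death and arrest differed between the clones. Of 15 BCL2 family genes, 7 were lower in KO2 and 1 was higher, but scaling to equal totals left 3 each way. The share lower was 46.7%, beside 17.4% of all genes, and 3 of 15 after scaling stand beside 9.7% of all genes lower and 41.2% higher under that setting. After BCL2 came BCL2L1 (BCL-xL), with 12.41, 13.73 and 12.64 in KO2 and 22.72, 24.24 and 22.32 in KO1 (−0.79 ± 0.06), and PMAIP1 (NOXA), a promoter of apoptosis (−0.62 ± 0.07). WT was close to KO2 for BCL2L1 (13.90) and for PMAIP1 (9.49). MCL1, on which myeloma cells often depend, was lower by −0.15, a call lost after scaling to equal totals (adjusted p = 0.273). CDKN1A (p21), an inhibitor of cyclin-dependent kinases, had 14.41, 14.53 and 14.27 in KO2 and 27.64, 30.17 and 28.32 in KO1 (−0.95 ± 0.06, adjusted p = 1.96e-09). KO2R stood at 14.42, like KO2, and WT at 37.15. Over the list of p53 targets and CDK inhibitors 10 of 32 genes were lower and 6 higher. The shares were 31.2% lower and 18.8% higher, beside 17.4% and 25.3% of all genes. After scaling to equal totals 6 were lower and 11 higher, where 9.7% of all genes were lower and 41.2% higher.

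The late cell cycle and FOXM1 target list did not separate the clones in 1 direction. Of 66 tested genes, 12 were higher in KO2, 11 lower and 43 not called, with a median of −0.02. The shares were 18.2% higher and 16.7% lower, beside 25.3% and 17.4% of all genes. The balance moved with the setting. After scaling to equal totals 20 were higher and 6 lower, where 41.2% of all genes were higher and 9.7% lower. With the length trend removed 9 were higher (13.6%) and 20 lower (30.3%), beside 17.2% and 18.1% of all genes. CCNB1 (63.00 in KO2 and 64.09 in KO1, adjusted p = 0.736), PLK1 (87.76 and 86.98, adjusted p = 0.816) and CDC25B (72.02 and 75.53, adjusted p = 0.148) were not called. With the length trend removed CDC25B was called lower (−0.13, adjusted p = 0.0151), and after scaling to equal totals PLK1 was called higher (adjusted p = 0.0179). Within the list, PTTG1 (securin) was lower with 87.65, 89.39 and 93.68 in KO2 and 133.42, 132.35 and 132.58 in KO1 (−0.55 ± 0.04), and CKS1B, a Cdk-binding protein, was lower by −0.47 ± 0.04. MKI67, the proliferation marker Ki-67, was higher with 37.00, 34.41 and 34.03 in KO2 against 25.06, 25.32 and 24.98 in KO1 (0.47 ± 0.05), and still higher by 0.20 with the length trend removed. MYC was not called (164.6 in KO2 and 159.1 in KO1, adjusted p = 0.281), but it was called higher under quantile scaling and scaling to equal totals (adjusted p = 0.0205 and 0.00295).

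In 3 lists of stress and growth genes, more genes were higher in KO2 than lower. Of 31 ATF4 and amino acid response genes, 17 were higher in KO2 and 3 lower (median 0.13). SLC7A5, the large neutral amino acid transporter, had 115.29, 111.66 and 110.61 in KO2 and 79.76, 83.00 and 79.15 in KO1 (0.48 ± 0.03, adjusted p = 2.36e-08). SLC7A1, the arginine transporter, was higher by 0.51 ± 0.05 and ATF4 itself by 0.19 ± 0.03, whereas DDIT4, an inhibitor of mTORC1, was lower by −0.61 ± 0.06. Of 27 heat shock chaperones, 11 were higher and 1 lower, among them BAG3 (0.44 ± 0.04) and HSPH1 (0.39 ± 0.06). Of 42 MYC and ribosome biogenesis genes, 17 were higher and 1 lower, led by POLR1B, a subunit of RNA polymerase I, with 31.18, 31.11 and 31.59 in KO2 and 20.04, 18.94 and 20.36 in KO1 (0.64 ± 0.05). Each of these lists kept more genes higher than lower with the length trend removed, with 15 higher and 4 lower, 11 and 0, and 11 and 2. The shares higher in KO2 were 54.8%, 40.7% and 40.5% for the 3 lists in the order given, beside 25.3% of all genes, and 48.4%, 40.7% and 26.2% with the length trend removed, beside 17.2% of all genes.

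**Figure D2:**
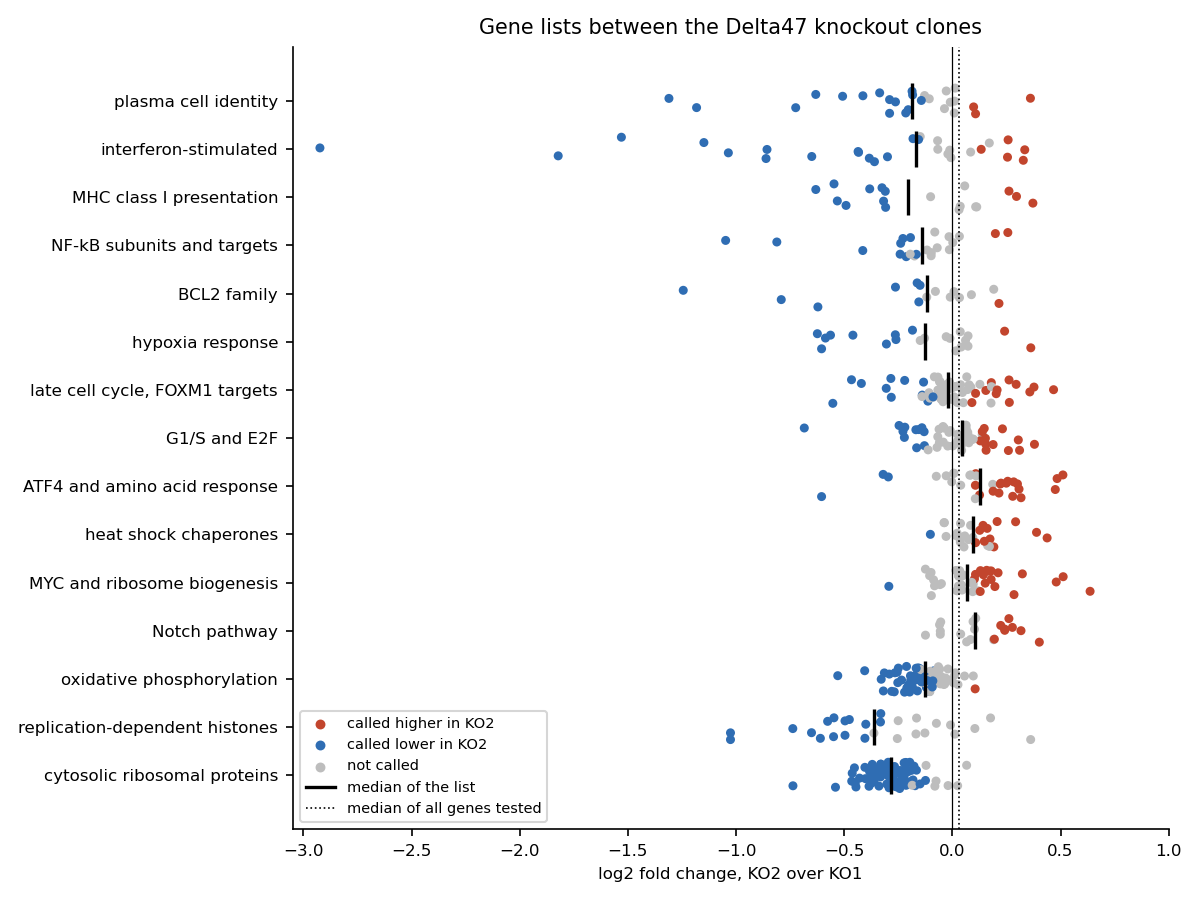
Log2 fold changes of KO2 over KO1 for the genes of 15 lists, each point 1 gene, coloured by its call at an adjusted p below 0.05. Thick bars are list medians, which run from −0.36 for replication-dependent histones to 0.13 for ATF4 and amino acid response genes, and the dotted line is the median of all genes, 0.0304.

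Genes with short transcripts were lower in KO2 as a class. Across 10682 genes with a known transcript length, Spearman's rho between length and the log2 fold change of KO2 over KO1 was 0.441 (a correlation across genes, which are not replicates). The shortest eighth of genes (177 to 1127 bases) had a median of −0.119, with 84 higher and 595 lower, and the longest eighth (5126 to 30355 bases) a median of 0.174, with 692 higher and 61 lower. Each of these bins held 1336 genes, and over all genes tested 25.3% were higher and 17.4% lower. Against WT the trend lay with KO1 (rho −0.392) more than with KO2 (rho −0.0553). In KO2R over KO2 it was stronger, with rho −0.553, so that short genes were higher in KO2R, and levels and calls of KO2R against KO2 were not corrected for it. What part of this trend belongs to the cells and what part to library preparation was not tested.

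**Figure D3:**
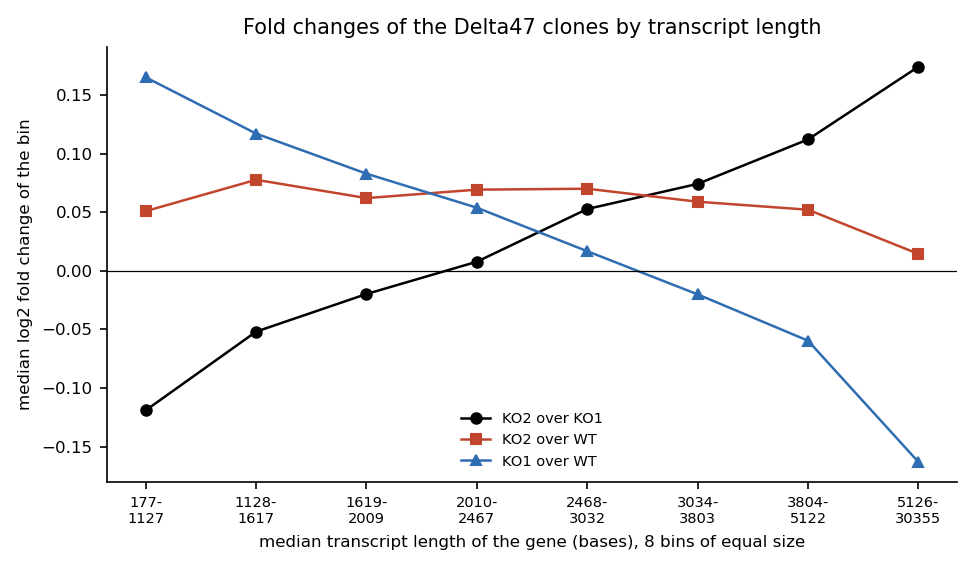
Median log2 fold change of KO2 over KO1, KO2 over WT and KO1 over WT in 8 bins of genes by transcript length. The KO2 over KO1 medians rise from −0.119 in the bin of shortest transcripts to 0.174 in that of the longest, while KO2 over WT stays between 0.0144 and 0.0776.

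Lists of short genes followed the trend in different degrees. All 75 called of 82 cytosolic ribosomal protein genes, a list added after values were seen, were lower in KO2 (median −0.28), among them RPS18 with 2280, 2226 and 2214 in KO2 and 3035, 3014 and 2998 in KO1 (−0.43 ± 0.03). With the length trend removed, 62 were still lower and 2 were higher (median −0.16), and with quantile scaling 41 were lower and 3 higher. The share lower was 91.5%, beside 17.4% of all genes, and 75.6% with the trend removed, beside 18.1%. Quantile scaling left 2059 of all 10771 genes lower and 2345 higher. Of 75 oxidative phosphorylation genes, 44 were lower (58.7%) and 1 higher (median −0.13), beside 17.4% of all genes lower. With the trend removed only 15 were lower (20%) and 9 higher (12%), with a median of −0.03. All genes then stood at 18.1% lower and 17.2% higher, so the share lower was near that background. Of 27 replication-dependent histone genes, 15 were lower and 0 higher (median −0.36), and 12 and 0 with the trend removed (−0.20). The share lower was 55.6%, and 44.4% with the trend removed, beside 17.4% and 18.1% of all genes. HIST1H1C, a linker histone, had 125.45, 119.46 and 121.83 in KO2 and 211.60, 198.42 and 203.64 in KO1 (−0.74 ± 0.05). HIST2H2AA3 and HIST2H2AA4 are identical copies with the same values in the table and were lower by −1.03.

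Beyond single genes, whole stretches of chromosomes differed between the clones. The median log2 fold change of KO2 over KO1 was −0.2167 on chromosome 18, where 76 of 133 genes were lower and 15 higher, and −0.1553 on chromosome 21, where 52 of 102 were lower and 12 higher. The shares lower were 57.1% and 51%, and the shares higher 11.3% and 11.8%, beside 17.4% and 25.3% of all genes. On the other 21 chromosomes (Y left out) the median lay between 0.001244 and 0.06353. Against WT it was KO1 that departed: on chromosome 18 the median was 0.034 for KO2 and 0.206 for KO1, and on chromosome 21 it was 0.085 for KO2 and 0.243 for KO1. Chromosome 8 was lower in both clones than in WT, by medians of −0.115 in KO2 and −0.130 in KO1, and hardly separated them (0.0339).

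**Figure D4:**
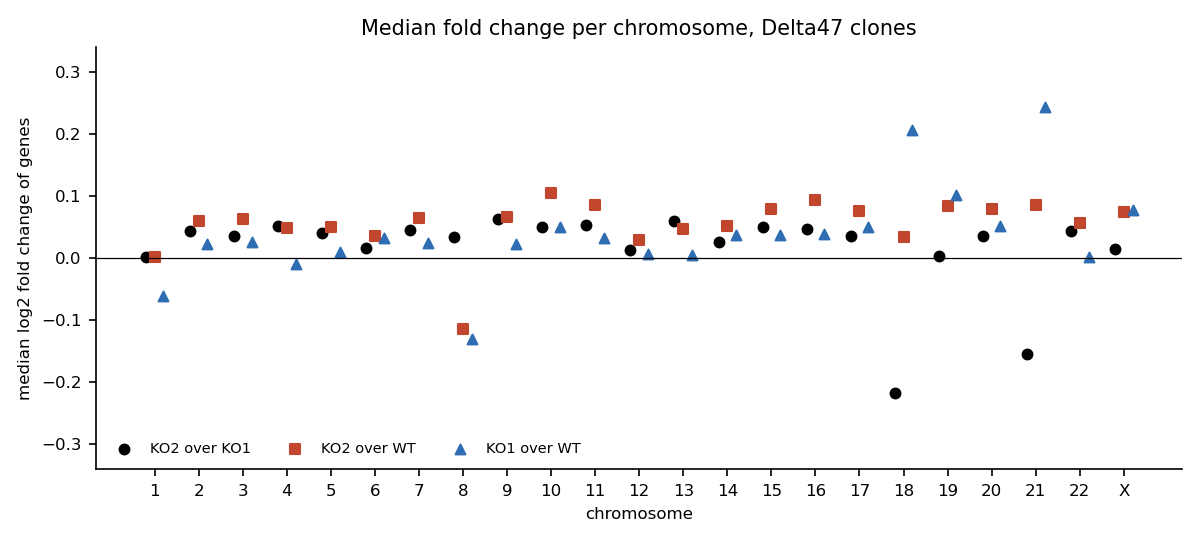
Median log2 fold change of the genes on each chromosome for KO2 over KO1, KO2 over WT and KO1 over WT. Chromosomes 18 and 21 lie below 0 for KO2 over KO1 (−0.2167 and −0.1553) and above 0 for KO1 over WT (0.206 and 0.243).

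Gene order located the difference more closely. A running median over 31 neighbouring genes, with the length trend removed, was followed along each chromosome, and runs of at least 50 genes beyond 0.12 in either direction were kept. The window and the limit were chosen after the data had been seen and the runs are given with no test. All 5 runs were lower in KO2. They were picked by these same fold changes, so a high share of genes lower follows in part from the choice. Of all genes tested, 17.4% were lower and 25.3% higher. On chromosome 18 the run went from TAF4B to ADNP2, with 67 of 82 genes lower (81.7%) and 1 higher (1.22%). Its median was −0.39, while the other 51 genes of the chromosome had a median of 0.043. Relative to the WT mean, the genes of this run had a median of 0.0174, 0.0541 and 0.0257 in the 3 KO2 libraries and of 0.356, 0.338 and 0.406 in the 3 KO1 libraries. The 3 libraries of KO2 were near the WT level there, and those of KO1 were all higher. BCL2, TCF4, PMAIP1 and SEC11C, described above, lie in it, as do RPL17, a protein of the large ribosomal subunit (−0.74 ± 0.03), and ATP5F1A, the alpha subunit of the ATP synthase, with 361.3, 359.4 and 369.3 in KO2 and 523.6, 512.6 and 539.2 in KO1. BCL2 (−1.24) and TCF4 (−1.08) lay well beyond the median of the run.

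On chromosome 21 the run from GATD3B to SPATC1L covered 94 of 102 genes, 49 of them lower and 9 higher (median −0.16). The shares were 52.1% lower and 9.57% higher, beside 17.4% and 25.3% of all genes. It holds IFNAR2, a chain of the interferon alpha and beta receptor, which had 31.67, 32.46 and 33.44 in KO2 and 44.48, 42.53 and 43.48 in KO1 (−0.41 ± 0.04). COL6A1 lies in the same run and was higher in KO2, against the trend of its neighbours.

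Chromosome 1 held the other 3 runs. From PERM1 to VAMP3, 46 of 63 genes were lower (73%) and 1 was higher (1.59%), beside 17.4% and 25.3% of all genes. The median was −0.21 for KO2 over KO1, 0.12 for KO2 over WT and 0.36 for KO1 over WT. ISG15 lies in this run, with MIB2, a ubiquitin ligase of the Notch pathway (−0.90 ± 0.05). From HIST2H2BE to ILF2, 34 of 55 were lower (61.8%) and 7 higher (12.7%), with a median of −0.18. From TAGLN2 to IVNS1ABP, 65 of 109 were lower (59.6%) and 6 higher (5.5%), with a median of −0.19. In these last 2 runs both clones lay below WT, KO2 more so: the medians over WT were −0.48 for KO2 and −0.28 for KO1 in the first and −0.61 for KO2 and −0.40 for KO1 in the second. SLAMF7, CD48 and METTL13 lie in the run from TAGLN2 to IVNS1ABP. CACYBP, a calcyclin-binding protein of the same run, had 148.5, 158.2 and 155.0 in KO2 and 262.6, 250.4 and 268.0 in KO1, with KO2R at 179 and WT at 328. In KO2R over KO2 the medians of the 5 runs lay between −0.17 and 0.026. DNA copy number was not measured in these files, and its part in the runs was not tested.

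**Figure D5:**
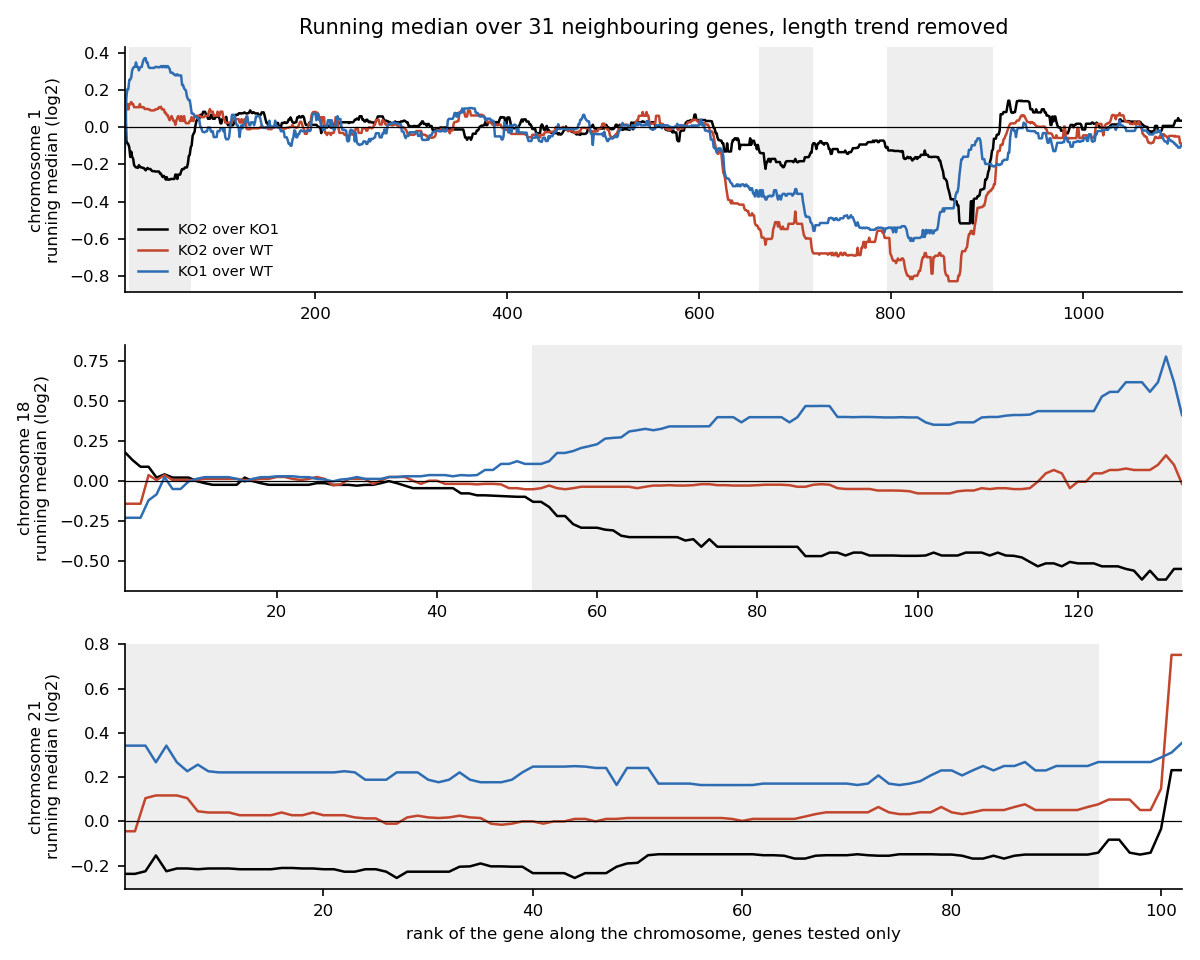
Running median of log2 fold changes over 31 neighbouring genes (fewer at the chromosome ends), with the length trend removed, along chromosomes 1, 18 and 21. Lines are KO2 over KO1, KO2 over WT and KO1 over WT, and grey marks the 5 runs; in the chromosome 18 run the KO1 over WT line is above 0 while KO2 over WT stays near 0, and in 2 of the chromosome 1 runs both lines against WT are below 0.

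The knockout clones of OPM2 also differed from each other. There limma called 3058 of 10135 genes between KO2 and KO1 (30.2%), with 63 at least 2-fold higher in KO2 (0.622%) and 141 at least 2-fold lower (1.39%). KO2 replicate 3 of OPM2 stood apart, and without it 6210 genes were called. Among 9310 genes tested in both lines, 3951 were called in Delta47 and 2706 in OPM2, and 1208 were called in both, which is 30.6% of the Delta47 genes and 44.6% of the OPM2 genes. Of all 9310 genes 29.1% were called in OPM2, so the share among the Delta47 genes was near that background. Without the OPM2 library that stood apart, the shares were 63.9% and 44.6% against a background of 60.8%.

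At least 2-fold differences were shared by 9 genes, 30% of the 30 such genes of Delta47 and 6.12% of the 147 of OPM2 (background 1.58% in OPM2). The numbers of the clones are arbitrary in each line, so directions carry no meaning across lines. PDIA2 was among the 9, with 100.18, 95.76 and 111.02 FPKM in OPM2 KO2 and 30.33, 29.75 and 34.03 FPKM in OPM2 KO1. So were OAS1 (6.38, 6.81 and 2.35 FPKM in OPM2 KO2, against 0.83, 1.01 and 0.89 FPKM in OPM2 KO1), TCF4, LILRB4 and COTL1, besides SH2D3C, SULF1, TMPRSS15 and JAM3. For SH2D3C and SULF1 the OPM2 KO2 library that stood apart lay within the range of OPM2 KO1. Without that library 336 genes were at least 2-fold apart in OPM2 (3.61%), and again 9 of them were shared, 30% of the Delta47 genes and 2.68% of the OPM2 genes. LILRB4 was then below 2-fold in OPM2 (−0.78), and the other 8 named genes stayed above it. By chromosome, OPM2 medians of KO2 over KO1 ranged from −0.1954 on chromosome 7 to 0.409 on chromosome 22. Chromosome 18, which had the largest departure in Delta47, had the second largest in OPM2 (0.2406), and chromosome 21 had −0.1382.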

How the data were processed

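Poly-A RNA of the samples was sequenced as paired reads on the DNBSEQ platform, per the labels' protocols, and aligned to build hg19, per the submitters' processing notes. The sources used here do not name the aligner or the counting tool. For Delta47 the deposited table names no unit, so its values were treated as a signal (the authors' expression value); for OPM2 the file headers name FPKM, as computed by the authors. Read counts were not used here, so depth is unknown and no count test was run. Of the value columns, 3 of Delta47 were not used because their name matches no single sample, so the empty-vector group was not analysed here. The columns KOR lack the clone number; they were assigned to KO2R by the letter R.

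The analysis used log2(value + 1) of the values as they stand, so fold changes of low genes are understated. limma-trend (limma 3.58.1, R 4.3.3) was fitted over the 12 libraries of Delta47 WT, KO1, KO2 and KO2R, with Benjamini-Hochberg adjustment over 10771 genes and a call at an adjusted p below 0.05, and likewise for OPM2. The fit was checked on simulated data. Named genes are FOXM1, the 15 largest rises and falls among called genes with a mean of at least 5 in a clone, the 8 largest differences in mean each way, up to 4 of each list by adjusted p and 25 fixed genes; IRF7, IRF9, ATF4, IFIT1, IFIT5, IFI6, HLA-B, HLA-C, IFNAR2, MIB2, CACYBP and the genes shared with OPM2 were added after their values were seen. Some genes that the rule names are not reported here. Members and lists were chosen with earlier results of these data known. Lengths are medians over GENCODE v29 basic transcripts, and the length trend was a lowess curve of each library's deviation from the mean of all libraries on log2 length, an alternative chosen after the data had been seen. Chromosome and gene order are from RefSeq GRCh38.p14, matched by gene ID (17038 IDs). Promoters are from RefSeq. The overlap with OPM2 without the library that stood apart was also added after the data had been seen. Other pseudocounts, filters, scalings, fits and left-out libraries were tried.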

Additional observations from a re-analysis of the deposited data

Results flagged for a closer look

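Among the genes named by the rule, reported here and at least 2-fold apart between the clones, 9 were called against WT in opposite directions in KO2 and in KO1. SH2D3C and JAM3, reported for their overlap with OPM2, were also in this class. The difference itself was tested as KO2 over KO1 with limma, and the other values are log2 fold changes over WT. IFITM1 was −1.06 over WT in KO2 and 1.87 in KO1, a difference of −2.92. OAS1 was −0.30 in KO2 and 1.53 in KO1 (−1.82), ISG15 was −0.49 in KO2 and 0.66 in KO1 (−1.15), PDIA2 was −0.34 in KO2 and 2.10 in KO1 (−2.44), and TP53I11 was −1.28 in KO2 and 0.22 in KO1 (−1.50). In the other direction, IAH1 was 0.30 in KO2 and −2.33 in KO1 (2.63), and PRSS23 was 0.57 in KO2 and −1.08 in KO1 (1.65). KRT18 was 0.78 in KO2 and −0.50 in KO1 (1.27), and COTL1 was 0.42 in KO2 and −0.71 in KO1 (1.13). The KO2 and KO1 libraries are the same in all of these comparisons, and each clone is a single clone.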

How the results depend on the processing

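The count of genes called stayed between 3737 and 5490 under all settings run, and leaving out 1 library gave 3737 to 4036. Scaling each column to the same total gave 4443 higher and 1047 lower. The count of genes at least 2-fold apart (62, with 29 higher and 33 lower) was 148 (85 and 63) with a pseudocount of 0.1, 19 (8 and 11) with a pseudocount of 5 and 36 (17 and 19) when a mean of 5 or more was asked for. In the last setting fewer genes were tested, 8156; the pseudocount moves the folds of low genes by its construction. FOXM1 was called only with the length trend removed (−0.1306, adjusted p = 0.0143). Of the named genes, CCND2 and NSD2, called higher, turned to −0.07247 and −0.04255 with the length trend removed (adjusted p = 0.223 and 0.387). Their transcripts are long (6480 and 6321.5 bases), and removing the trend lowers the fold changes of long genes by its construction. RPLP1 gave 0 under quantile scaling, and the cause was not tested. For OPM2, 1180 genes were called with only the 6 clone libraries, and 2150 to 6210 with 1 library left out, the highest without KO2 replicate 3; the cause was not tested. Same-numbered replicates of the clones did not deviate together (correlations of −0.0843, −0.0131 and 0.0632), so the number was not taken as a pairing. With a replicate block 4478 genes were called (2622 higher and 1856 lower). Depth is unknown, and genes with values near 1 are measured least well.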
